A study of Mus musculus with 4 samples.

Results

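The genes described here are 10 members of the bone morphogenetic protein (BMP) pathway in cells of the adult mouse lung. They are 3 ligands (Bmp2, Bmp4 and Bmp6), 5 receptors and co-receptors (Bmpr1a, Bmpr1b, Bmpr2, Acvrl1 and Eng) and 2 target genes (Id1 and Id3). They were chosen by symbol, not by their values, and are 10 of the 57010 genes in the deposited count matrix.

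The study compared lungs of Shh-Cre mice with a floxed Trp73 gene (Cre_Pos) with lungs of littermates that lacked Cre and were homozygous for the floxed allele (Cre_Neg). Both groups were C57Bl6/J mice of 8 weeks, so both carried loxP sites around exons 7 to 9 of Trp73, the gene of the p53 family factor p73. Shh-Cre is active in the lung epithelium from early development, and endothelium, fibroblasts and blood cells are not its usual targets. Each genotype was a single suspension pooled from 6 mice, depleted of CD45-positive and enriched for Epcam-positive cells, and both were barcoded together by SPLiT-seq and split over 4 sublibraries. The sublibraries are technical aliquots of the same 2 pools and not replicate animals. With 1 pool per genotype there is no test, no p-value is given, and every interval is a 95% interval that covers counting error only.

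BMP ligands bind as dimers to complexes of type I receptors (among them BMPR1A, BMPR1B and ACVRL1, also called ALK1) and type II receptors (among them BMPR2). The type I receptor phosphorylates SMAD1, SMAD5 and SMAD9, which enter the nucleus with SMAD4 and raise transcription of Id genes, inhibitors of basic helix-loop-helix factors. Endoglin (Eng) is an endothelial co-receptor that acts with ACVRL1. In the lung the pathway is known for vascular disease, since inherited pulmonary arterial hypertension is linked to BMPR2 and hereditary haemorrhagic telangiectasia to ENG and ACVRL1, and for a part in alveolar and airway epithelial repair.

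The matrix held 191160309 transcripts (UMIs, counted molecules) in 647296 barcodes, of which 16579 had at least 500 genes: 8752 from the Cre_Pos pool and 7827 from the Cre_Neg pool. After a limit on mitochondrial UMIs and removal of called doublets, 16369 cells remained, with a median of 8224 UMIs in Cre_Pos cells and 8710.5 in Cre_Neg cells. Cells were clustered without the BMP genes and named from marker genes, with "-like" added because the names rest on markers alone. Clusters whose markers pointed to more than 1 type stayed unnamed and are given by number. Of the 16579 cells with at least 500 genes, 574 had a barcode string that occurred in 2 or more sublibraries. Trp73 itself had 312 CPM (UMIs per 1000000 UMIs of the class) in the 126 Cre_Pos ciliated-like cells and 334 CPM in the 1227 Cre_Neg ciliated-like cells, and 11.8 against 85.8 CPM over all kept cells. The gene-level count does not show which exons were read. The share of cells with only Y-linked UMIs among cells called for 1 sex was 2.75% in Cre_Pos and 17.0% in Cre_Neg general capillary-like cells, and 95.3% against 16.7% in ciliated-like cells, so genotype and sex make-up of the pools cannot be told apart. The calls are uncertain. Of general capillary-like cells, 85 Cre_Pos and 243 Cre_Neg cells had only Y-linked UMIs. Both Xist and Y-linked UMIs were found in 76 and 33 cells, and neither in 348 and 293. A call therefore need not give the sex of the mouse.

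Promoter sequence is shown for 4 members whose levels were highest in endothelial groups, to set the sequence beside the shared pattern described below. RefSeq (build GRCm38.p6) gave promoters for 7 of the 10 members, with none for Bmp2, Acvrl1 and Id1. The 250 bases before each gene's start are printed 5′ to 3′ on the gene's strand. Capitals mark 2 SMAD motifs searched on both strands. They are the GC-rich motif GGCGCC, which reads the same on both, and the SMAD box CAGAC, which on the other strand reads GTCTG. No matches overlap here.
Bmpr2, chr1:59764029-59764278, plus strand: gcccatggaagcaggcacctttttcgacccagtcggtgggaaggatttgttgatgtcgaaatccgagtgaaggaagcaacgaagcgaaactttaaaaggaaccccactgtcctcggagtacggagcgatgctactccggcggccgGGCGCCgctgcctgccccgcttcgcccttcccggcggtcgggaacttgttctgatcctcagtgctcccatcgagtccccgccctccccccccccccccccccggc
Eng, chr2:32646345-32646594, plus strand: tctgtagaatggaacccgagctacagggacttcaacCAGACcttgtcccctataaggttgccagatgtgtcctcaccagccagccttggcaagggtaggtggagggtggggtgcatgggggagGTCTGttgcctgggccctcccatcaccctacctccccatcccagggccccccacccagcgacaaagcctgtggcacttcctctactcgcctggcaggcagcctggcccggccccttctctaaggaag
Bmp6, chr13:38345466-38345715, plus strand: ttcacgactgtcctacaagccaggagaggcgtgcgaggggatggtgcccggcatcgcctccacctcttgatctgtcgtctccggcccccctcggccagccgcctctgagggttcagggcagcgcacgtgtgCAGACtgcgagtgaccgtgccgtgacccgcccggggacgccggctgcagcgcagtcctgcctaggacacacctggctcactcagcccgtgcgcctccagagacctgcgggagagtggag
Id3, chr4:136143572-136143821, plus strand: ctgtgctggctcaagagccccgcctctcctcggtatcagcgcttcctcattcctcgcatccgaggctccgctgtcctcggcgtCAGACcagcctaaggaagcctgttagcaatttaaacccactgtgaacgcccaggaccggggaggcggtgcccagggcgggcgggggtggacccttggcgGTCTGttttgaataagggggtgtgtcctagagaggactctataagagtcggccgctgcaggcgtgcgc
The Bmpr2 promoter held 1 GGCGCC, a motif found in 9.59% of 32851 promoters of this length. Eng and Id3 each held 2 CAGAC motifs and Bmp6 held 1, and 42.2% of all promoters hold at least 1. The motifs were not limited to members with the endothelial pattern. The Bmpr1a promoter also held 1 GGCGCC, the promoters of Bmpr1b held 0 or 1 CAGAC, and the Bmp4 promoter held neither motif. No promoter of a member held the spaced pair of both motifs that SMAD1 and SMAD4 bind together, which 0.07% of promoters hold. A match is a stretch of letters in this window and shows no binding.

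Across 24 classes and unnamed clusters of at least 50 cells, the members divided into an endothelial set (Bmp6, Bmpr2, Acvrl1, Eng, Id1 and Id3) and a set with other patterns: Bmp2 and Bmpr1b were highest in epithelium, Bmpr1a in a mesothelial-marker cluster and epithelium, and Bmp4 in a mix of endothelial, epithelial and stromal groups. Over the 16 named classes of this size, the Pearson correlation of log2(CPM + 10) was 0.95 between Acvrl1 and Eng, 0.91 between Bmp6 and Eng, 0.91 between Bmpr2 and Acvrl1, and 0.86 between Id1 and Id3. Bmpr1a ran the other way, with -0.47 against Acvrl1 and -0.37 against Eng. These correlations describe 16 class sums that share libraries and differ in depth, and carry no p-value.

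**Figure D1:**
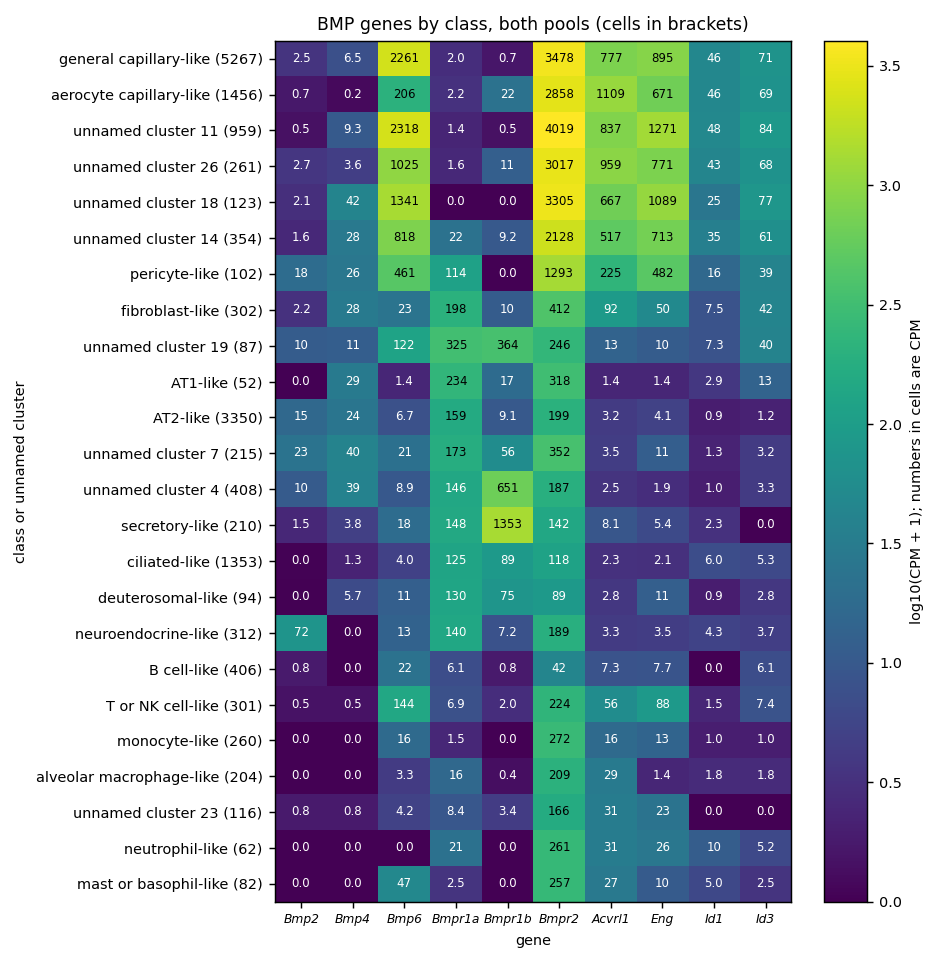
Level of each BMP gene (columns) in each class or unnamed cluster with at least 50 cells (rows, cell numbers in brackets), both pools summed. Colour is log10(CPM + 1) and the printed numbers are CPM. Bmp6, Bmpr2, Acvrl1, Eng, Id1 and Id3 are highest in the endothelial rows at the top, Bmpr1b in secretory-like cells and cluster 4, and Bmp2 in neuroendocrine-like cells.

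Among ligands, Bmp6, which in the body also signals iron load to the liver, was highest in endothelial groups other than aerocyte capillary-like cells. It had 2318 CPM in cluster 11 (with Plvap and Sema3g among its leading genes and as many arterial as general capillary markers) and 2261 CPM in general capillary-like cells, and the sublibrary ranges of these 2 groups overlapped. The general capillary-like cells held 74.4% of all Bmp6 UMIs. Aerocyte capillary-like cells, the second capillary type of the alveolus, had 206 CPM, and the sublibraries of the 2 capillary classes did not overlap (197 to 222 against 2225 to 2305 CPM). Cluster 18, with 7 of 8 arterial markers, had 1341 CPM, and cluster 14, with venous and capillary markers, had 818 CPM of Bmp6. The 102 pericyte-like cells had 461 CPM of Bmp6, with a wide range of 219 to 780 CPM over sublibraries. The part of capillary RNA in this level, and in the pericyte-like levels of Acvrl1, Bmpr2 and Eng below, was not tested. After each cell was thinned to 2000 UMIs, 89.4% of general capillary-like cells and 22.9% of aerocyte capillary-like cells still had a Bmp6 UMI, against 1.19% of AT2-like cells (alveolar type 2 cells, which make surfactant) and 0.823% of ciliated-like cells. Unthinned, the shares were 95.7%, 45.6%, 5.91% and 5.99%.

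Bmp2 and Bmp4, a closely related pair of ligands with wide roles in development, were highest in other cells. Bmp2 was highest in neuroendocrine-like cells, the sensory and hormone-producing cells of the airway, with 72.0 CPM (65.2 to 77.1 CPM over the 4 sublibraries). This lay above all sublibraries of the next group, cluster 7 (alveolar cells led by Ndnf and Ano1, with AT2 and Krt8 transitional markers), at 22.8 CPM. AT2-like cells had 15.5 CPM and held 50.9% of the Bmp2 UMIs. Bmp2 was not detected in 260 monocyte-like cells.

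Bmp4 had no single source. Cluster 18 had 41.8 CPM, cluster 7 had 39.6 CPM, cluster 4 (led by Scgb1a1 and Cyp2f2 with AT2 markers) had 38.8 CPM, AT1-like cells (the flat gas-exchange cells) had 28.5 CPM and fibroblast-like cells had 28.3 CPM. The sublibrary ranges of each neighbouring pair in this order overlapped. AT2-like cells had 24.0 CPM of Bmp4 and general capillary-like cells 6.53 CPM, while none of 312 neuroendocrine-like cells had a Bmp4 UMI, which allows a share of up to 0.962% of cells with a detected UMI and sets no limit on cells that express the gene.

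Of the type I receptors, Acvrl1 was highest in endothelium and Bmpr1a was near 0 there, and both were found in pericyte-like (225 and 114 CPM) and fibroblast-like cells (92.0 and 198 CPM). Acvrl1 had 1109 CPM in aerocyte capillary-like cells and 959 in cluster 26 (with aerocyte and general capillary markers). It had 837 in cluster 11 and 777 in general capillary-like cells, and these groups did not overlap in their sublibraries. In epithelium Acvrl1 was at 3.17 CPM in AT2-like and 2.30 CPM in ciliated-like cells.

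Bmpr1a had 325 CPM in cluster 19 (with 6 of 6 mesothelial markers), 234 CPM in AT1-like, 198 CPM in fibroblast-like, 159 CPM in AT2-like and 125 CPM in ciliated-like cells. In general capillary-like cells it had 1.97 CPM (71 UMIs in 5267 cells) and in aerocyte capillary-like cells 2.25 CPM. None of the 123 cells of cluster 18 had a Bmpr1a UMI. Barcodes with at most 50 UMIs, which stand for free RNA, had 68.4 CPM of Bmpr1a in the Cre_Pos and 78.6 CPM in the Cre_Neg wells, far above the level of the capillary classes.

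Bmpr1b was highest in airway secretory-like cells but was not limited to the airway. It had 1353 CPM in secretory-like cells, 651 CPM in cluster 4, 364 CPM in cluster 19, 88.5 CPM in ciliated-like and 74.7 CPM in deuterosomal-like cells (precursors of ciliated cells, here at a low median depth of 1067 UMIs). The first 3 were separate in all sublibraries, and ciliated-like and deuterosomal-like cells overlapped. AT2-like cells had 9.11 CPM, and within them cluster 2 had 19.8 CPM against 2.66 CPM in cluster 3. Thinned to 2000 UMIs, 47.5% of secretory-like cells and 1.31% of AT2-like cells had a Bmpr1b UMI (unthinned 59.5% and 4.51%), against 0.182% of general capillary-like cells.

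Bmpr2, the type II receptor, was found in all 24 groups and was highest in endothelium. It had 4019 CPM in cluster 11, 3478 CPM in general capillary-like cells and 3305 CPM in cluster 18. Cluster 26 had 3017 CPM, aerocyte capillary-like cells 2858 CPM and cluster 14 had 2128 CPM. Pericyte-like cells followed with 1293 CPM and fibroblast-like cells with 412 CPM. Named epithelial classes ranged from 88.9 CPM in deuterosomal-like to 318 CPM in AT1-like cells, and B cell-like cells were lowest with 42.2 CPM of Bmpr2. Free RNA held 1651 CPM of Bmpr2 in Cre_Pos and 1259 CPM in Cre_Neg wells.

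Eng was likewise highest in endothelial groups, followed by pericyte-like cells. It had 1271 CPM in cluster 11, 1089 CPM in cluster 18, 895 CPM in general capillary-like, 671 CPM in aerocyte capillary-like and 482 CPM in pericyte-like cells. AT2-like cells had 4.07 CPM and ciliated-like cells 2.12 CPM of Eng. The thinned share of cells with an Eng UMI was 76.6% in general capillary-like cells and 0.520% in AT2-like cells.

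Id1 and Id3 had their highest levels in endothelial groups too. Id1 had 47.5 CPM in cluster 11, 46.4 CPM in aerocyte capillary-like and 45.9 CPM in general capillary-like cells, with overlapping sublibraries, and 0.95 CPM in AT2-like cells. Id3 had 83.6 CPM in cluster 11, 77.3 CPM in cluster 18, 70.6 CPM in general capillary-like and 68.5 CPM in aerocyte capillary-like cells. Outside endothelium Id3 was present in fibroblast-like cells (41.5 CPM), where Id1 had 7.46 CPM, and at 1.22 CPM in AT2-like cells.

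Capillary cells were seldom seen with both Id transcripts at equal depth. Among 4956 general capillary-like cells thinned to 2000 UMIs, 70 had both, 377 had Id1 only and 597 had Id3 only. Id3 was found in 15.7% of cells with Id1 and in 13.2% of cells without it. In aerocyte capillary-like cells these shares were 19.2% and 12.1%. The cells come from 2 pools and are not replicates, so the shares are given without a test.

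The other genes of the pathway give the setting. Among further ligands, Bmp5 and Bmp3 had the most UMIs: Bmp5 had 454 CPM in pericyte-like, 365 CPM in fibroblast-like, 288 CPM in cluster 4 and 126 CPM in AT2-like cells, and 1.17 CPM in general capillary-like cells. Bmp3 had 152 CPM in fibroblast-like cells. Of the feedback and target genes, the inhibitory Smad6 had 2999 CPM in cluster 18, 1134 CPM in aerocyte and 1076 CPM in general capillary-like cells, against 41.9 CPM in AT2-like cells. Tmem100, an endothelial gene that depends on ACVRL1 signalling, had 1066 CPM in general capillary-like and 742 CPM in aerocyte capillary-like cells. Among co-receptors, Tgfbr3 had 886 CPM in fibroblast-like cells and Acvr2a 295 CPM in pericyte-like cells. Smurf2, a ubiquitin ligase of the pathway, had 1128 CPM in aerocyte capillary-like cells, and its relative Smurf1 had 163 CPM in AT2-like cells. The extracellular modulator Crim1 had 2110 CPM in pericyte-like and 607 CPM in general capillary-like cells, and Fstl1 had 550 CPM in fibroblast-like cells.

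By the correlation over 16 named classes, the genes most like each member came out of 13141 genes. Eng was most like Fendrr, Shank3 and Tmem100 (r 0.98, 0.97 and 0.97), Acvrl1 most like Hspa12b, Clec1a and Tspan18 (each 0.97), and Bmpr2 most like Tubb2a, Clec1a and Mmp28 (0.92 each). Bmp6 was most like Pcdh17, Gm49393 and Sox11 (0.96, 0.95 and 0.95), Id1 most like Cyp1a1, Gm9917 and Ushbp1 (0.95, 0.95 and 0.94), and Id3 most like Tmem204, Mxra7 and Slc16a9 (0.96, 0.95 and 0.95). Bmp4 was most like Kank2, Npnt and Hspg2 (0.97, 0.93 and 0.93), and Bmp2 most like Shisa6, Jph1 and B830012L14Rik (0.94, 0.94 and 0.93). Bmpr1b was most like Cckar, Slc16a11 and Pigr (0.96, 0.95 and 0.95), and Bmpr1a most like Cdc42bpg, Neo1 and Ptpn3 (each 0.92).

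Cre_Pos and Cre_Neg cells were compared within the 13 classes and clusters that had at least 100 cells in each pool. Of 77 pairs of a member and a class with at least 50 UMIs over both pools, 22 differed at least 1.5-fold, 17 higher and 5 lower in Cre_Pos cells. A gene low in 1 pool can reach this minimum through the other pool, so counts of low-count genes past 1.5-fold partly follow from it. Over all genes with at least 50 UMIs, the share past 1.5-fold ranged from 4.34% in AT2-like to 23% in T or NK cell-like cells. All 4 sublibraries had the same direction in 8 of the 22. Ratios below are log2 of Cre_Pos over Cre_Neg.

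**Figure D2:**
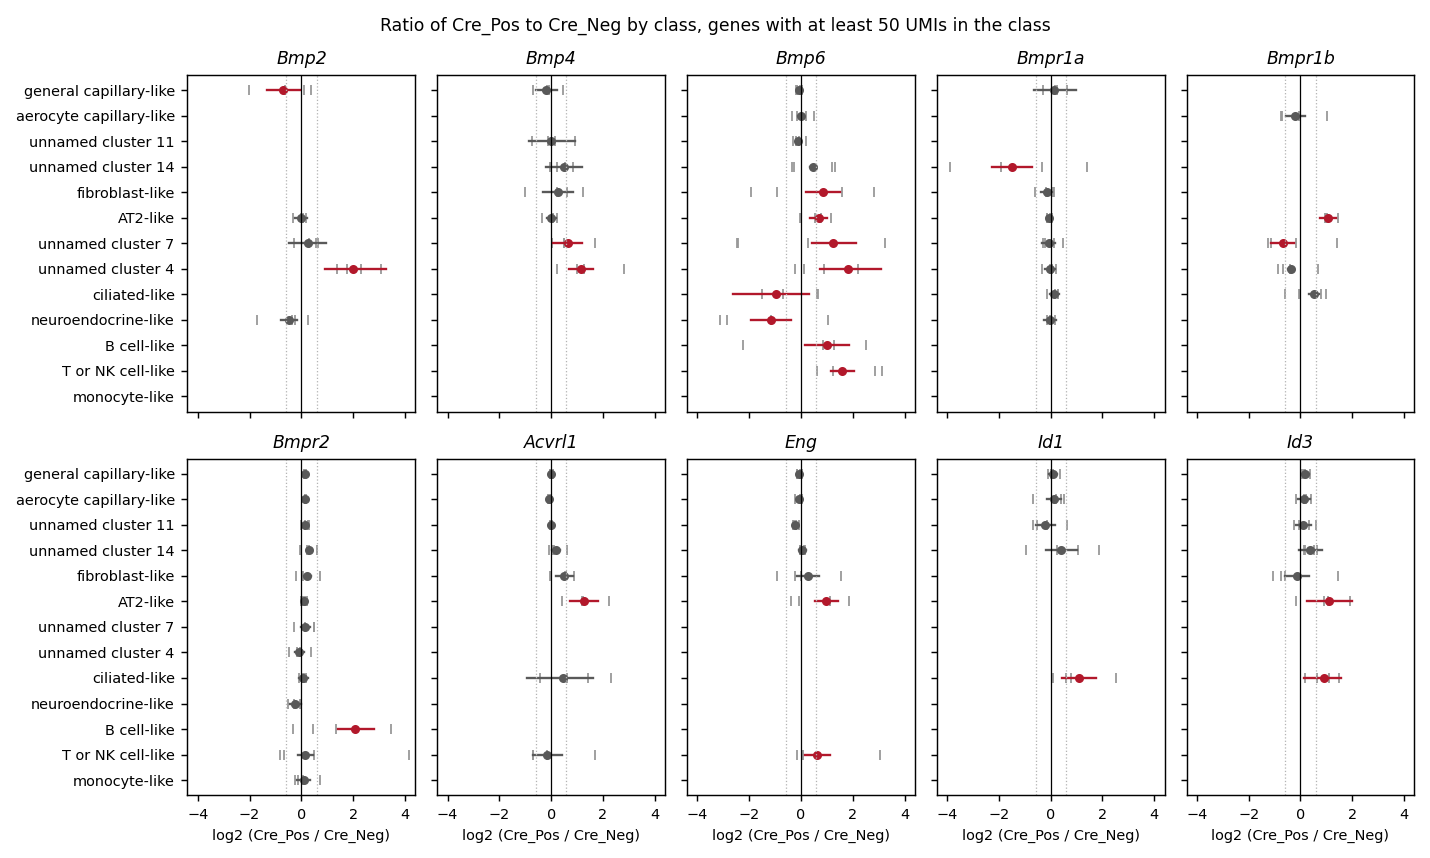
log2 ratio of Cre_Pos to Cre_Neg (horizontal axis) for each BMP gene by class (rows), for genes with at least 50 UMIs in the class. Points and bars are the ratio with its 95% counting interval, red where it is at least 1.5-fold, grey ticks are the 4 sublibraries (a pool without a UMI set to 3 counts) and dotted lines mark 1.5-fold. In the upper rows of capillary cells the ratios lie near 0 with short bars, and the red points are mostly low-count genes of other classes.

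The endothelial set differed little between the pools in capillary cells. In general capillary-like cells 1 of 9 measured members differed at least 1.5-fold, against 5.22% of 12000 genes, and the median over the members was -0.02 against -0.01 over all genes. In aerocyte capillary-like cells 0 of 7 members did, against 5.80% of 9794 genes, and in cluster 11 0 of 7, against 7.89% of 8438 genes. The following differences are therefore small ones within classes whose members mostly did not differ by 1.5-fold.

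Bmpr2 was the endothelial member with the most even difference. In general capillary-like cells it had 3550, 3578, 3558 and 3607 CPM in the Cre_Pos cells of sublibraries 1 to 4, against 3303, 3239, 3205 and 3228 CPM in the Cre_Neg cells. The 2 pools did not overlap, and the log2 ratio was 0.14 (0.12 to 0.16). In aerocyte capillary-like cells Bmpr2 had 2867, 3044, 2926 and 2883 CPM in Cre_Pos cells against 2624, 2785, 2657 and 2567 CPM in Cre_Neg cells, a log2 ratio of 0.14 (0.11 to 0.17). Within each sublibrary the Cre_Pos value was higher in both classes, and in cells with only Y-linked UMIs among general capillary-like cells the ratio was 0.04 (-0.03 to 0.11), from 85 Cre_Pos and 243 Cre_Neg cells. Free RNA of Bmpr2 was also higher in Cre_Pos wells, as given above, and its part in these ratios was not tested.

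Acvrl1 and Eng had small differences whose direction was not the same in all cells. Acvrl1 in aerocyte capillary-like cells had 1087, 1055, 1129 and 1106 CPM in Cre_Pos and 1131, 1142, 1199 and 1138 CPM in Cre_Neg cells, lower in each of the 4 sublibraries with a log2 ratio of -0.08 (-0.13 to -0.03). Acvrl1 in general capillary-like cells had a ratio of -0.02 (-0.06 to 0.01), but 0.03 (-0.02 to 0.07) in cells with only Xist UMIs and 0.12 (-0.02 to 0.26) in cells with only Y-linked UMIs. Eng in cluster 11 had 1231, 1234, 1186 and 1224 CPM in Cre_Pos and 1396, 1482, 1472 and 1304 CPM in Cre_Neg cells, a log2 ratio of -0.21 (-0.28 to -0.15). The Eng values of the pools did not overlap there, while in general capillary-like cells its ratio was -0.07 (-0.10 to -0.03), lower in 3 of 4 sublibraries. Eng in cells with only Y-linked UMIs was at 0.01 (-0.27 to 0.29) in cluster 11 and at 0.14 (-0.0018 to 0.28) in general capillary-like cells.

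Id3 in general capillary-like cells had 76.3, 74.1, 69.6 and 72.2 CPM in Cre_Pos and 59.2, 65.4, 67.0 and 64.9 CPM in Cre_Neg cells. These did not overlap either, and the log2 ratio was 0.18 (0.06 to 0.31). In cells with only Y-linked UMIs it was -0.06 (-0.61 to 0.47), from 41 and 111 UMIs. The thinned share of general capillary-like cells with an Id3 UMI was 13.7% in Cre_Pos and 12.9% in Cre_Neg cells. Id1 had ratios of 0.09 (-0.07 to 0.24) in general and 0.13 (-0.13 to 0.39) in aerocyte capillary-like cells, with sublibraries on both sides of 0. Bmp6 had a ratio of -0.07 (-0.09 to -0.05) in general capillary-like cells, lower in 3 of 4 sublibraries, and 0.00 (-0.12 to 0.12) in aerocyte capillary-like cells. Split by these calls, Bmp6 in general capillary-like cells had -0.11 (-0.13 to -0.08) with only Xist UMIs and 0.32 (0.24 to 0.40) with only Y-linked UMIs, the opposite direction, from 1772 and 3693 UMIs. The Y-linked value rests on 85 Cre_Pos cells, beside 76 Cre_Pos cells with both kinds of UMIs. The 1 member past 1.5-fold, Bmp2 (log2 ratio -0.70), rested on 55 Cre_Pos and 36 Cre_Neg UMIs in general capillary-like cells and was higher in 2 and lower in 2 sublibraries.

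Of the 49 other BMP genes, 23 were measured in general capillary-like cells and 2 were past 1.5-fold, against 5.22% of all 12000 genes. Both were higher: the secreted antagonist Nbl1 (47 against 8 UMIs, 1.24) and Smad9 (0.59). The median over the 23 was 0.10 against -0.01 over all genes. Tmem100 was lower in Cre_Pos cells in every sublibrary, with ratios of -0.30 (-0.33 to -0.27) in general capillary-like cells, -0.27 (-0.33 to -0.21) in aerocyte capillary-like cells and -0.21 (-0.28 to -0.14) in cluster 11. Hey1, a transcription repressor, had 0.37 (0.25 to 0.49) in general capillary-like cells, and Msx1 had -0.17 (-0.68 to 0.36). In aerocyte capillary-like cells 3 of 19 were past 1.5-fold, against 5.8% of all 9794 genes. All were higher: Crim1 (1.11), Smad9 (0.94) and Twsg1 (0.63).

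Cluster 14, with venous and capillary markers, had 1 of 8 measured members past 1.5-fold, against 12.4% of 7041 genes. This was Bmpr1a at -1.48 (-2.25 to -0.73), from 25 Cre_Pos and 43 Cre_Neg UMIs, of which 41.2% lay in 5 cells. Without sublibrary 2 its ratio was 0.03. Epithelial markers were lower with it in Cre_Pos cells of cluster 14: 5 of 8 secretory markers, with 29.2 CPM (1.98 to 79.0 CPM) against 190 CPM (22.8 to 492 CPM), and 6 of 8 Krt8 transitional markers, with 83.4 CPM (61.4 to 111 CPM) against 145 CPM (106 to 190 CPM), with 2 or 3 markers of each list at 0 in a pool. Their part in the ratio was not tested. Bmp6 had 0.47 (0.35 to 0.60) and Bmpr2 0.30 (0.22 to 0.37) in cluster 14, with 2 and 3 sublibraries higher in Cre_Pos.

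**Figure D3:**
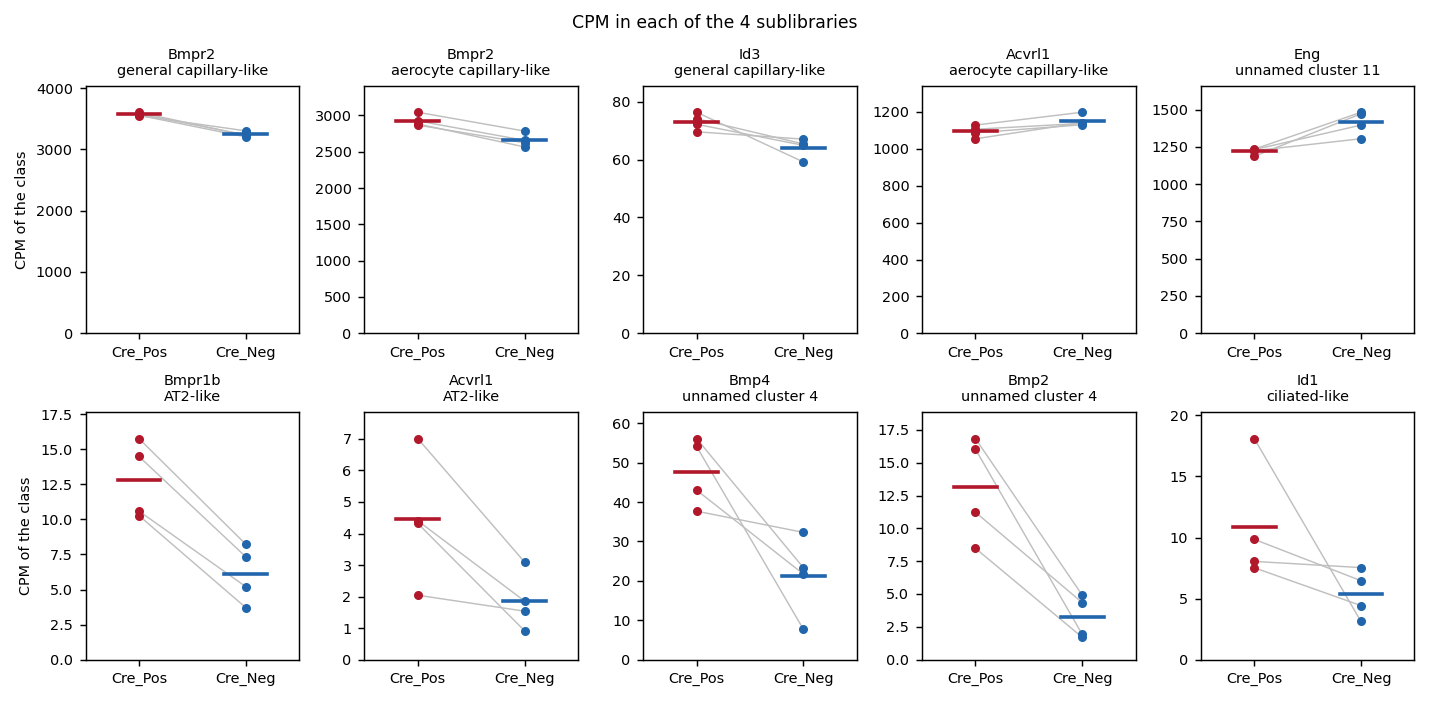
CPM of 10 gene and class pairs in each of the 4 sublibraries, Cre_Pos (red, left) and Cre_Neg (blue, right), with grey lines joining the 2 pools of a sublibrary and bars at the mean of the 4. Axes start at 0. In the top row the pools are close together with Bmpr2 and Id3 higher and Acvrl1 and Eng lower in Cre_Pos. In the bottom row low-count genes in epithelial groups are higher in Cre_Pos.

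AT2-like cells, which descend from Shh-expressing epithelium, had 5 of 9 measured members past 1.5-fold, all higher in Cre_Pos, against 4.34% of 12878 genes. The median of the 9 was 0.68 against 0.01 over all genes. The 5 members are at low levels in this class, and 4 of them belong to the endothelial set. The members that AT2-like cells carry at high UMI numbers did not differ by 1.5-fold.

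Bmpr1b had the difference closest in size over sublibraries. AT2-like cells had 15.8, 10.6, 14.5 and 10.3 CPM of Bmpr1b in Cre_Pos and 8.24, 5.21, 7.34 and 3.72 CPM in Cre_Neg cells, from 258 and 145 UMIs. The 2 pools did not overlap, the log2 ratio was 1.05 (0.75 to 1.36), and the sublibraries ranged from 0.94 to 1.47. The same direction held in cluster 1 (14.2 against 4.87 CPM) and cluster 2 (24.8 against 14.7 CPM), and cluster 3 had 2.64 against 2.68 CPM. In cells with only Xist UMIs the ratio was 1.33 (0.97 to 1.70), and in cells with only Y-linked UMIs it was -0.74 (-1.75 to 0.17) from 13 Cre_Pos and 48 Cre_Neg UMIs. Bmpr1b in free RNA was 55.2 CPM in Cre_Pos and 75.03 CPM in Cre_Neg wells, and the part of free RNA in the Bmpr1b ratio was not tested.

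Acvrl1 in AT2-like cells had 4.32, 7.01, 2.04 and 4.41 CPM in Cre_Pos and 0.915, 3.10, 1.54 and 1.86 CPM in Cre_Neg cells, a log2 ratio of 1.25 (0.73 to 1.79) from 94 and 46 UMIs. The values of the pools overlapped, although within each sublibrary Cre_Pos was higher. Eng had 0.98 (0.53 to 1.43), Bmp6 0.68 (0.34 to 1.03) and Id3 1.10 (0.26 to 1.99), with 2, 3 and 3 of 4 sublibraries higher. In Cre_Pos AT2-like cells 59.3% of the Eng UMIs and 34.0% of the Acvrl1 UMIs lay in 5 cells, against 22.4% and 13.04% in Cre_Neg cells. Without cluster 28, a shallow AT2-like cluster with 98.7 CPM of Eng, the ratios were 0.67 for Eng and 1.07 for Acvrl1. With cells thinned to 2000 UMIs, Eng was at -0.14.

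Markers of other cell types differed in AT2-like cells too. All 8 general capillary markers had higher CPM in Cre_Pos AT2-like cells, with a summed 86.8 CPM (60.5 to 112 CPM over sublibraries) in Cre_Pos and 64.1 CPM (48.0 to 75.1 CPM) in Cre_Neg cells, and none was at 0 in either pool. All 8 Krt8 transitional markers were also higher, with 339 CPM (313 to 348 CPM) in Cre_Pos and 294 CPM (257 to 310 CPM) in Cre_Neg cells, ranges that did not overlap. The 8 aerocyte capillary markers were nearly level, 5 higher and 3 lower, with 225 CPM (219 to 229 CPM) against 219 CPM (214 to 226 CPM). Of the 8 secretory markers 7 were lower, with 22.7 CPM (19.2 to 25.5 CPM) against 28.8 CPM (25.9 to 35.0 CPM), and Chad was at 0 in Cre_Pos cells. Free RNA of Acvrl1 was 314 CPM in Cre_Pos and 256 CPM in Cre_Neg wells, that of Eng 316 and 276 CPM, that of Bmp6 852 and 669 CPM, and that of Id3 18.05 and 15.4 CPM. The part of these marker differences and of capillary RNA in the AT2-like ratios was not tested.

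Bmpr1a and Bmpr2, found in 77.0% and 79.9% of AT2-like cells, were nearly level between the pools. Bmpr1a had 155 CPM in Cre_Pos and 162 CPM in Cre_Neg cells (log2 ratio -0.07, -0.13 to 0.00), and Bmpr2 had 206 and 192 CPM (0.11, 0.05 to 0.17), lower and higher in 3 of 4 sublibraries. Bmp4 had 24.1 and 23.9 CPM (0.01, -0.17 to 0.19) and Bmp2 15.3 and 15.6 CPM (-0.02, -0.25 to 0.20). Bmpr1a in cells with only Y-linked UMIs was at 0.25 (0.07 to 0.42), the opposite direction. Bmp4 was at 0.52 (0.04 to 0.99) in cells with only Y-linked UMIs, an interval that reaches past 1.5-fold. In cells with only Xist UMIs it was at -0.11 (-0.31 to 0.09). The intervals of Bmp2 and Bmp4 over all AT2-like cells lie within 1.5-fold either way and cover counting error only.

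Among 25 other BMP genes measured in AT2-like cells, 2 were past 1.5-fold, against 4.34% of all 12878 genes. Both were higher: Tmem100 (1.10, 121 against 66 UMIs) and Fstl1 (0.65, 78 against 58 UMIs). Smad6 had 0.53 (0.40 to 0.66), higher in 4 of 4 sublibraries, while Smad7 had 0.10 (-0.07 to 0.27) and Id2 0.11 (-0.02 to 0.23). Tgfbr3 at -0.55 (-0.86 to -0.25) and Bambi, a decoy receptor, at -0.40 (-0.63 to -0.17) were lower in 4 of 4. The ligands Bmp3 (-0.16, -0.31 to -0.01) and Bmp5 (-0.04, -0.11 to 0.04) and the transducers Smad9 (-0.33, -0.95 to 0.29), Smad1 (-0.08, -0.19 to 0.03), Smad4 (0.06, -0.04 to 0.15) and Smurf1 (0.14, 0.07 to 0.21) stayed under 1.5-fold.

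Cluster 4, which carries airway secretory and AT2 markers, had 3 of 6 measured members past 1.5-fold, against 16.2% of 9385 genes, and all 3 were the ligands. Bmp4 had 43.1, 56.1, 54.1 and 37.7 CPM in Cre_Pos and 21.7, 23.4, 7.71 and 32.3 CPM in Cre_Neg cells, with no overlap and a log2 ratio of 1.14 (0.69 to 1.60). Bmp2 had 11.2, 16.8, 16.0 and 8.48 CPM in Cre_Pos and 4.35, 4.92, 1.93 and 1.70 CPM in Cre_Neg cells, from 58 and 8 UMIs, again with no overlap (1.98, 0.91 to 3.26). Bmp6 (1.82) rested on 52 and 8 UMIs, of which 55.0% lay in 5 cells. The receptors were under 1.5-fold, with Bmpr1b at -0.38 (-0.46 to -0.29; 0.30, 0.02 to 0.59, in cells with only Y-linked UMIs) and Bmpr1a at -0.04 (-0.23 to 0.15).

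The make-up of cluster 4 also differed between the pools. Of the 8 secretory markers 7 were lower in Cre_Pos cells, with a summed 10976 CPM (8943 to 12872 CPM over sublibraries) against 21191 CPM (16967 to 24085 CPM). Of the 8 AT2 markers 7 were higher, with 9949 CPM (9139 to 10735 CPM) against 5981 CPM (4405 to 7691 CPM), and all 8 general capillary markers were higher, with 264 against 106 CPM. Of the 8 Krt8 transitional markers 7 were higher, with 921 CPM (831 to 1013 CPM) against 566 CPM (423 to 746 CPM). Of these 4 lists 1 marker was at 0, the capillary gene Gpihbp1 in Cre_Neg cells. Of the 8 aerocyte capillary markers 4 were higher and 3 lower, with 438 CPM (406 to 476 CPM) against 446 CPM (388 to 541 CPM). Apln was at 0 in both pools and Fibin in Cre_Neg cells. Bmp2 and Bmp4 are higher in AT2-like than in secretory-like cells and Bmpr1b is lower, the levels of Bmp2 and Bmp4 in cluster 7, which carries Krt8 transitional markers, are given above, and the part of this difference in make-up was not tested. In cells with only Y-linked UMIs, 42 in Cre_Pos and 15 in Cre_Neg, the ratios in cluster 4 were -0.41 (-2.80 to 2.90) for Bmp2 and -0.21 (-1.36 to 1.11) for Bmp4. Of 19 other BMP genes in cluster 4, 2 were past 1.5-fold, against 16.2% of all 9385 genes. Both were lower, Fstl1 (-0.83) and the co-receptor Rgma (-0.79), while Bmp5 was at 0.06 (-0.08 to 0.20).

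Cluster 7 had 3 of 6 members past 1.5-fold, against 15.5% of 7404 genes. Bmp4 had 0.63 (0.09 to 1.20), higher in Cre_Pos in 4 of 4 sublibraries, from 81 and 44 UMIs. Bmp6 (1.25) had 86.2% and Bmpr1b (-0.69) 54.2% of their UMIs in 5 cells, and their sublibraries lay on both sides of 0. Without sublibrary 4 the Bmp6 ratio was -1.65. Bmp6 had, in cells with only Y-linked UMIs, 0 Cre_Pos and 13 Cre_Neg UMIs. All 8 AT2 markers were lower in Cre_Pos cells of cluster 7, with a summed 6375 CPM (3320 to 9537 CPM) against 8369 CPM (3799 to 12631 CPM), and 5 of 8 secretory markers were lower, with 201 CPM (46.4 to 757 CPM) against 1314 CPM (25.7 to 4692 CPM). Scgb3a1 and Chad were at 0 in both pools and Bpifa1 in Cre_Pos cells. The part of these markers in the ratios was not tested.

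Ciliated-like cells, which need Trp73 for their motile cilia, had 3 of 7 members past 1.5-fold, against 13% of 12435 genes. Id1 had 7.52, 9.85, 18.1 and 8.04 CPM in Cre_Pos and 4.42, 6.46, 3.12 and 7.54 CPM in Cre_Neg cells, from 27 and 107 UMIs. Only 1 Cre_Neg value, the highest, lay above the lowest Cre_Pos value, and the log2 ratio was 1.11 (0.45 to 1.73). Id3 had 4.51, 7.88, 11.6 and 13.4 CPM against 4.00, 3.72, 4.16 and 8.51 CPM, with overlap and a ratio of 0.89 (0.14 to 1.58), from 21 and 97 UMIs. Both Id genes were higher in 4 of 4 sublibraries.

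The thinned share of ciliated-like cells with a UMI was 5.00% in Cre_Pos and 0.904% in Cre_Neg cells for Id1 and 1.67% and 1.07% for Id3. These shares rest on few cells: of 1337 thinned cells over both pools, 16 had Id1 only, 14 had Id3 only and 1 had both. Cells with only Xist UMIs numbered 5 in the Cre_Pos pool and had no Id1 or Id3 UMI. In cells with only Y-linked UMIs, 101 in Cre_Pos and 180 in Cre_Neg, the ratios were 1.52 (0.51 to 2.58) for Id1 and 2.55 (1.19 to 4.15) for Id3. Bmp6 was lower in Cre_Pos (-0.95, -2.62 to 0.33) with 5 and 83 UMIs, and 2 sublibraries lay on each side of 0. Bmpr1b at 0.53 (0.34 to 0.71) was higher in 2 and lower in 2 sublibraries, and was 0.00 (-0.27 to 0.28) in the cells with only Y-linked UMIs. The 5 Cre_Pos cells with only Xist UMIs held 78 of its 283 Cre_Pos UMIs. Bmpr1a and Bmpr2 had 0.13 (-0.04 to 0.30) and 0.07 (-0.11 to 0.25). General capillary markers summed to 119 CPM (50.9 to 204 CPM) in Cre_Pos and 78.5 CPM (67.6 to 92.6 CPM) in Cre_Neg ciliated-like cells, 5 of 8 higher, with Gpihbp1 and Aplnr at 0 in Cre_Pos cells. All 8 ciliated markers were lower, with 7757 CPM (7203 to 8524 CPM) in Cre_Pos against 8637 CPM (8472 to 8795 CPM) in Cre_Neg cells, and 7 of 8 secretory markers were higher, with 1285 CPM (668 to 1865 CPM) against 922 CPM (848 to 964 CPM). The part of these markers in the ratios was not tested.

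Of 24 other BMP genes in ciliated-like cells, 4 were past 1.5-fold, against 13% of all 12435 genes, a similar share. The target genes Atoh8 (1.65, 1.03 to 2.23) and Id4 (0.72, 0.33 to 1.09) were higher in 4 of 4 sublibraries and Smad9 (0.89, 0.49 to 1.27) in 3, while Hey1 (-0.95, -1.81 to -0.20) was lower in 4 of 4. Atoh8 had 34 and 93 UMIs in Cre_Pos and Cre_Neg cells and Id4 71 and 370 UMIs. Smad7 was at 0.08 (-0.41 to 0.54).

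In fibroblast-like cells 1 of 7 members was past 1.5-fold, against 14.5% of 7883 genes: Bmp6 at 0.84, with 78.5% of its UMIs in 5 cells and 2 sublibraries on each side of 0. Its ratio without sublibrary 4 was -0.68. Acvrl1 had 106 CPM in Cre_Pos and 74.4 CPM in Cre_Neg cells (0.51, 0.20 to 0.83), higher in 3 of 4 sublibraries, and Id3 39.6 and 43.8 CPM (-0.15, -0.60 to 0.31). Summed general capillary markers were 1083 CPM (807 to 1333 CPM) in Cre_Pos and 820 CPM (693 to 1018 CPM) in Cre_Neg fibroblast-like cells, 6 of 8 higher, with Gpihbp1 at 0 in Cre_Neg cells. All 8 aerocyte capillary markers were higher, with 509 CPM (362 to 689 CPM) against 255 CPM (223 to 311 CPM), ranges that did not overlap, and Car4 was at 0 in Cre_Neg cells. The part of these markers in the member ratios was not tested. Among 25 other BMP genes 7 were past 1.5-fold, against the same 14.5% of all genes. The antagonist Bmper (1.03, 0.83 to 1.22) and Smad6 (1.04, 0.69 to 1.40) were higher and Fstl1 (-0.80, -0.92 to -0.68) and Nbl1 (-0.74, -0.91 to -0.56) lower in 4 of 4 sublibraries.

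In neuroendocrine-like cells 1 of 4 members was past 1.5-fold, against 10.8% of 8537 genes: Bmp6 at -1.16, from 28 and 34 UMIs. Bmp2, their most characteristic ligand, had 63.5 CPM in Cre_Pos and 87.7 CPM in Cre_Neg cells (-0.47, -0.78 to -0.15), lower in 3 of 4 sublibraries. Bmpr2 was at -0.23 (-0.42 to -0.03), lower in 4 of 4, and Bmpr1a at -0.03 (-0.26 to 0.20).

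In immune classes the measured members were Bmp6, Bmpr2, Acvrl1 and Eng, and those past 1.5-fold had most of their UMIs in few cells. B cell-like cells had 2 of 2 past 1.5-fold, against 15.5% of 5978 genes, T or NK cell-like cells 2 of 4, against 23% of 5943 genes, and monocyte-like cells 0 of 1, against 12.6% of 5019 genes. In monocyte-like cells Bmpr2 was spread over cells, with a UMI in 185 of 260 cells and 12.9% of its UMIs in 5 cells. The ratios were 1.00 for Bmp6 and 2.08 for Bmpr2 in B cell-like cells and 1.58 for Bmp6 and 0.62 for Eng in T or NK cell-like cells, of which Bmp6 in T or NK cell-like cells was higher in 4 of 4 sublibraries and the others in 3. In B cell-like cells 75.9% of Bmp6 and 59.6% of Bmpr2 UMIs lay in 5 cells, and in T or NK cell-like cells 71.7% of Bmp6 and 58.1% of Eng UMIs. Summed general capillary markers in T or NK cell-like cells were 1013 CPM (614 to 1668 CPM) in Cre_Pos and 726 CPM (36.5 to 1107 CPM) in Cre_Neg cells, 5 of 8 higher, and in B cell-like cells 319 CPM (50.4 to 925 CPM) and 30.4 CPM (23.1 to 37.1 CPM), 8 of 8 higher, with Aplnr at 0 in Cre_Neg cells. Their part in these ratios was not tested.

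**Figure D4:**
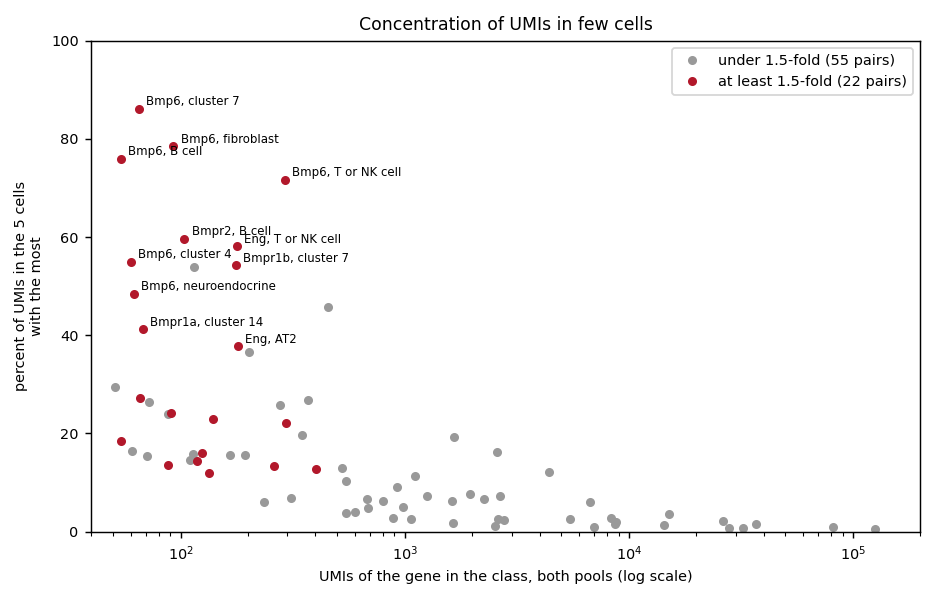
Percent of a gene's UMIs that lay in the 5 cells with the most (vertical axis) against its UMIs in the class over both pools (horizontal axis, log scale), for the 77 measured pairs of a BMP gene and a class. Red points differ at least 1.5-fold between Cre_Pos and Cre_Neg, and those above 30% are named. Bmp6 in cluster 7, fibroblast-, B cell- and T or NK cell-like cells lies above 70%, while Bmpr1b in AT2-like cells is at 12.7% and Id1 in ciliated-like cells at 11.9%.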

How the data were processed

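The deposited files hold whole-number UMI counts per gene and barcode, made by the authors from SPLiT-seq (Parse Evercode WT v2) reads, with 191160309 UMIs in all. The build is GRCm39 per the submitters' processing notes and mm10 per the deposited gene table, so no gene coordinates are taken from the files, and for the aligner no name is given in the sources used here. Pools were read from the deposited cell table.

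Cells with at least 500 genes were kept, 38 above 15% mitochondrial UMIs and 172 doublets called by Scrublet (0.751% to 1.25% per sublibrary) were removed, and the rest were clustered on 3000 variable genes without BMP genes, with 30 components, 15 neighbours and Leiden resolution 1 (scanpy 1.11.5, leidenalg 0.10.2, numpy 2.4.6, scipy 1.17.1, Python 3.11.15). Classes were named from marker lists, and the thresholds for naming were set after the clusters were seen. The BMP genes and all lists were chosen with earlier results of these data known.

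Levels are summed UMIs over class UMIs, with exact Poisson intervals, and ratios have exact conditional binomial intervals, each at 95%. The free-RNA level came from barcodes with at most 50 UMIs. A call meant at least 1.5-fold among genes with at least 50 UMIs, in classes with at least 100 cells per pool, and the ratio step was tested on simulated data. Each other BMP list is represented by the 2 highest and 2 lowest ratios per class, or for levels by the 2 genes with most UMIs. The alternatives were another scaling, other cell filters, equal weight of cells, thinning and other clusterings. Further ones were cells with only Xist or only Y-linked UMIs and leaving out each sublibrary.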

Additional observations from a re-analysis of the deposited data

Results flagged for a closer look

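Among the 54 pairs of a BMP gene and a class with at least 5 UMIs in each pool of each sublibrary, 2 had a sublibrary far from the other 3, and chance gives about 1 in 20. Bmpr1b in AT2-like cells had a log2 ratio of Cre_Pos over Cre_Neg of 1.468 in sublibrary 4, above the other 3, which had the same direction. Acvrl1 in general capillary-like cells had 0.05766 in sublibrary 2, while the other 3 were below 0.

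For 2 genes the 4 sublibraries lay all on one side of 0 in one class and all on the other side in another. Bmpr2 was higher in Cre_Pos aerocyte capillary-like (0.1394) and general capillary-like cells (0.1409) and lower in Cre_Pos neuroendocrine-like cells (-0.2284). Acvrl1 was higher in Cre_Pos AT2-like cells (1.252) and lower in Cre_Pos aerocyte capillary-like cells (-0.0785). These differences between classes were not tested.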

How the results depend on the processing

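With 10 UMIs as the minimum, 43 of 105 pairs differed at least 1.5-fold, and with no minimum 49 of 116, against 22 of 77 at 50 UMIs. The share of all genes past 1.5-fold was not computed at the lower minimums, where counting error is larger. Of the 22, the number under 1.5-fold was 5 with no mitochondrial limit or doublet removal, 6 with equal weight of cells, 6 with thinning, 3 at resolution 2, 1 with size factors and 1 to 4 with a sublibrary left out. It was 2 of 19 in cells with only Xist UMIs and 5 of 17 in cells with only Y-linked UMIs. The sign changes given next are those of pairs past 1.5-fold with UMIs in both pools. Smaller ratios also changed sign in the cells with only Xist or only Y-linked UMIs and are not all listed. In cells with only Y-linked UMIs the log2 ratio of Cre_Pos over Cre_Neg changed sign for Acvrl1 (-0.18), Bmpr1b (-0.74) and Eng (-0.86) in AT2-like cells, for Bmp2 (-0.41) and Bmp4 (-0.21) in cluster 4 and for Bmpr1b in cluster 7 (0.0086). With cells thinned to 2000 UMIs it did so for Eng in AT2-like cells (-0.145), Bmp6 in B cell-like (-1.38), ciliated-like (0.020) and fibroblast-like cells (-1.99), Bmp2 in general capillary-like cells (0.026) and Bmpr1b in cluster 7 (0.76). With equal weight of cells Bmp6 had -0.029 in B cell-like and -0.90 in fibroblast-like cells, and with no mitochondrial limit or doublet removal -0.038 in fibroblast-like cells. At resolution 2 Bmp6 had -1.75 in T or NK cell-like and 1.96 in ciliated-like cells, and Eng -1.70 in T or NK cell-like cells. Leaving out each sublibrary gave ranges of -1.22 to 2.03 for Bmp6 in B cell-like cells, -0.68 to 1.66 for Bmp6 in fibroblast-like cells, -2.60 to 0.027 for Bmpr1a in cluster 14 and -1.65 to 2.86 for Bmp6 in cluster 7. The cause of these shifts was not tested. The other scalings reversed no pair. With BMP genes kept in the clustering cluster 7 had no counterpart, and 0 of 71 pairs reversed. Leaving cluster 28 out of the AT2-like class, chosen after its values were seen, reversed 0 of 9 pairs.

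No paired analysis was possible because each genotype was 1 pool and no test was made. Counting intervals do not cover differences between mice, and genotype, pool and sex make-up cannot be told apart. Genes with under 50 UMIs in a class were not compared.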
